A study of Rattus norvegicus with 12 samples.

Results

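A set of 7 genes that encode neuropeptides of local forebrain neurons were followed in RNA-seq libraries from the preoptic area of newborn rats. The members were chosen by name and Ensembl identifier, not by a rule on their values. The choice was made with earlier results of these data known. The 7 are Sst (ENSRNOG00000001837, somatostatin), Npy (ENSRNOG00000009768, neuropeptide Y), Penk (ENSRNOG00000008943, proenkephalin), Pdyn (ENSRNOG00000026036, prodynorphin), Tac1 (ENSRNOG00000007374, the precursor of substance P and neurokinin A), Cck (ENSRNOG00000019321, cholecystokinin) and Vip (ENSRNOG00000018808, vasoactive intestinal peptide). They are 7 of the 29516 genes in the deposited tables. The study asked what a DNA methyltransferase inhibitor does to gene expression in this region, which differentiates by sex around birth. Its 12 libraries form 4 groups of 3: females given vehicle, females given zebularine, males given vehicle and males given zebularine. Injections fell on postnatal days 0 and 1, tissue came from postnatal day 2, and the vehicle was saline with 0.1% DNMSO, as the labels spell it. Zebularine is a cytidine analogue that traps DNA methyltransferases. The sources used here give neither strain nor dose, and do not say whether each library stands for its own animal. The p-values therefore measure the spread between libraries, which may be technical.

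Neuropeptides are cut from larger precursors in the secretory pathway and released from dense-core vesicles, from which they act on G protein-coupled receptors. In the forebrain, somatostatin, neuropeptide Y, cholecystokinin and vasoactive intestinal peptide are made by subsets of local neurons, many of them GABAergic interneurons. Enkephalins, dynorphins and the tachykinins are abundant in the neighbouring striatum and are also made by neurons of the preoptic area and hypothalamus. The preoptic area holds neurons that regulate sexual behaviour, parental care, body temperature and sleep.

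The libraries held between 15851598 (zebularine male replicate 2) and 30474857 (zebularine male replicate 1) reads assigned to genes. RPKM stands for reads scaled to the length of the gene model and to the depth of the library. For ENSRNOG00000037911 it was 42.4 to 59.7 in the 6 female libraries and at most 0.151 in the 6 male ones. This identifier was picked for the lowest limma p between the vehicle sexes, so its split of the vehicle libraries follows from that choice. Only its split of the zebularine libraries bears on the sex labels. Zebularine female replicate 3 stood apart on the first principal component, which carried 23.4% of the variance, with a score of 50.4 where the remaining 11 scored -11.6 to 9.49. Zebularine male replicate 1, the deepest library, moved several of the estimates for Sst, Npy and Penk. Markers of the tissue and of neighbouring regions, and the receptors and processing enzymes of these peptides, were not analysed here because the gene name table used here pairs none of the identifiers with a symbol.

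The 7 genes differed widely in level. Ranked by their mean RPKM over 12 libraries, the order was Sst at 119 ± 20.3 (SD, n = 12), Penk at 63.8 ± 20.9, Npy at 18.6 ± 8.95, Tac1 at 8.35 ± 1.76, Pdyn at 6.49 ± 0.841, Cck at 2.59 ± 0.612 and Vip at 0.198 ± 0.118. Sst lay above 97.8% of the 23427 genes detected in any library, and Penk above 94.8%. Cck lay close to the middle of the detected genes, above 48.3%, and Vip above 25.9%. Each neighbour in this order exceeded the next in 12 of 12 libraries, except that Tac1 exceeded Pdyn in 11 of 12. The exception was vehicle female replicate 1, where the ratio of Tac1 to Pdyn was 0.881. The narrowest gap that kept its order was that of Sst over Penk, whose ratio ran from 1.04 in vehicle female replicate 1 to 2.92. RPKM is a level per length of the gene model, so the order depends on these lengths. Tac1, for example, had a mean of 603 reads over a gene model of 2997 bases, and Npy 246 reads over 536 bases. In tissue of mixed cells, fewer neurons of a kind and less RNA in each of them cannot be told apart.

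**Figure D1:**
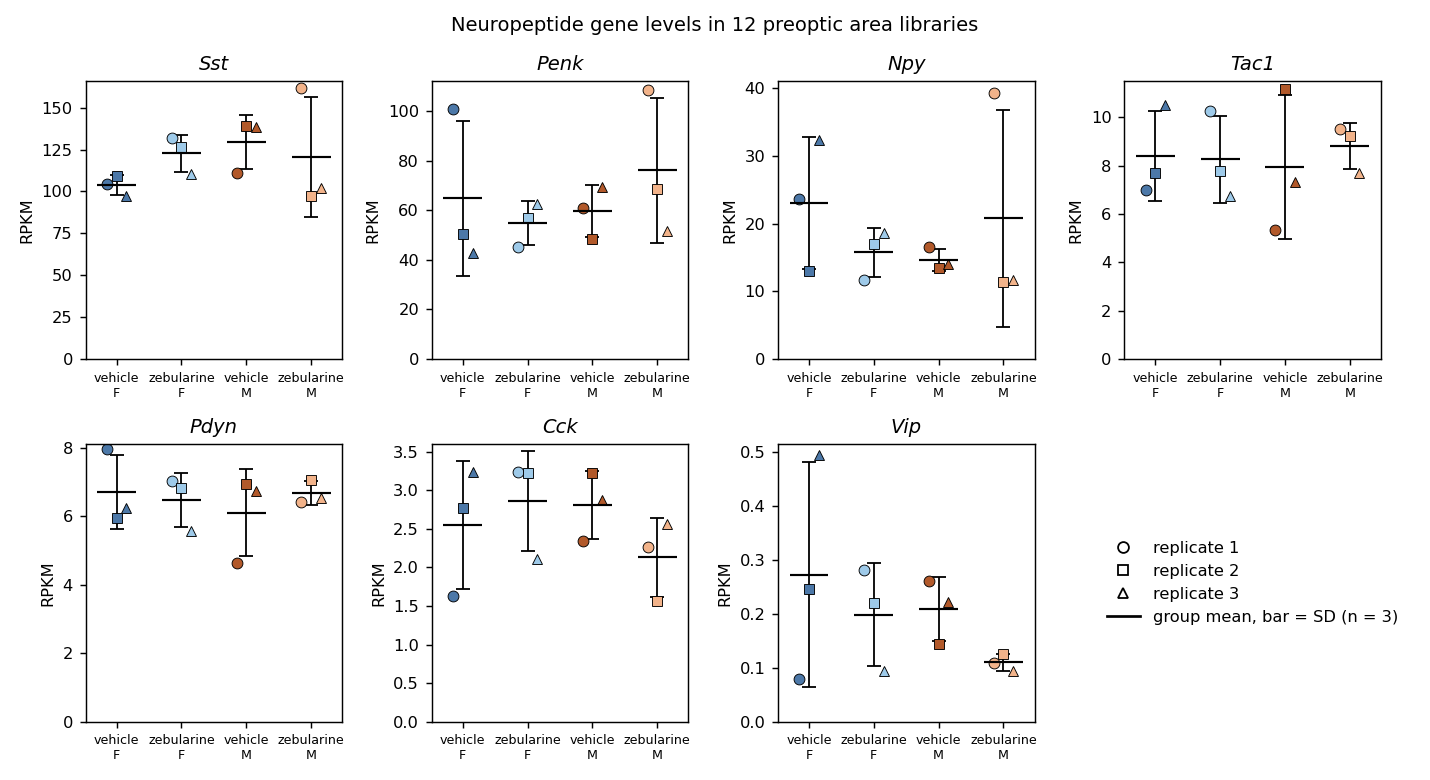
RPKM (vertical axis, starting at 0) of each of the 7 genes in the 12 libraries, by group (F, female; M, male); points are libraries, with one symbol per replicate number, horizontal lines are group means and bars are the SD (n = 3). Zebularine male replicate 1 is the highest library for Sst, Penk and Npy, and the groups overlap for most genes.

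No member passed the test in any comparison. The test was limma on log2(RPKM + 0.5) over the genes that reached 0.5 RPKM in 3 or more libraries, with Benjamini-Hochberg adjustment and a threshold of 0.05. Of the 7 members, 6 passed this filter on low values and Vip did not. For zebularine against vehicle over both sexes, 0 of the 6 tested members were called, where 0.405% of all 16310 tested genes were. Within females it was 0 of 6, against 0.0429% of all genes, and within males 0 of 6, against 0%. For the difference between the sexes in the response to zebularine it was 0 of 6, against 0%. Between males and females it was 0 of 6 under vehicle, against 0.0123%, and 0 of 6 under zebularine, against 0.0307%. With so few genes called in all, a count of 0 among 6 is near the background in each comparison. At an unadjusted limma p under 0.05 the count of members was also 0 in each of the 6 comparisons when all 4 groups shared one estimate of the spread, and limma-voom on recovered reads gave 0 by either threshold.

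Sst encodes somatostatin, an inhibitory peptide of interneurons and of hypothalamic cells. The cyclic AMP response element, the site bound by CREB, is a well-studied feature of this gene and of Vip. The stretch that holds it in Sst is shown with the element in capitals, beside the matching stretch of Vip, whose window holds only the shorter form TGACG, also in capitals. Both are read 5′ to 3′ on the gene's strand from RefSeq sequence of build GRCr8, and the Sst stretch lies at chr11:90461538-90461565 (+) and the Vip stretch at chr1:44470373-44470400 (+).
Sst: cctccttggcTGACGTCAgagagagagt
Vip: atcaccactgTGACGtctttcgaggagc

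Windows of 300 bases, from 250 bases before the annotated start to 50 bases after it, were found in that table for 5 of the 7 genes: Sst, Npy, Pdyn, Tac1 and Vip. TGACGTCA, which reads the same on both strands, was found in the Sst window, starting 3 bases into the annotated transcript, and in 1.83% of all 33469 windows. The shorter form, TGACG or CGTCA so that both strands are covered, was found in the windows of Sst, Tac1 and Vip and in 21.2% of all windows. In Sst both matches of the shorter form lie within the full element. In Tac1 and Vip the match lies before the start. A match is a description of letters, not a bound site. The annotated starts were not checked against measured starts of transcription, so all positions here hold for the annotation only.

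Zebularine inhibits the enzymes that methylate CpG, so the CpG content of these windows was also counted. The Npy window held 23 CpG and the Tac1 window 22, more than 80.5% and 79.0% of all windows. Sst held 11, Pdyn 10 and Vip 4, and the median of all windows was 7. The 180 bases before the annotated start are shown for Npy, the member whose window held the most CpG, and for Sst, the member with the highest level, with each CpG in capitals: 14 in Npy at chr4:80211931-80212110 (+) and 6 in Sst at chr11:90461366-90461545 (+), both from RefSeq, build GRCr8, 5′ to 3′.
Npy: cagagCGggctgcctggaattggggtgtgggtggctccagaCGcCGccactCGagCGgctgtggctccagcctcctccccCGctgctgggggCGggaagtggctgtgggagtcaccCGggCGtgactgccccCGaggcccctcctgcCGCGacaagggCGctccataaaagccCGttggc
Sst: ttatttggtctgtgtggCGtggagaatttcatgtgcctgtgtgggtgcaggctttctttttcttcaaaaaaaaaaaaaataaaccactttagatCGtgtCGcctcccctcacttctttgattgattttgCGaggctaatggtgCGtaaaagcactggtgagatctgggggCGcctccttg

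Methylation of these bases was not analysed here.

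Sst was the member with the least overlap between groups. Vehicle females stood at 105, 109 and 97.2 RPKM in replicates 1 to 3, and zebularine females at 132, 126 and 110 RPKM. Vehicle males stood at 111, 139 and 139 RPKM, and zebularine males at 162, 97.4 and 102 RPKM. The 3 vehicle females were thus below all vehicle males and all zebularine females, while the zebularine males reached from the low end of the female range to the highest value of the series.

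The log2 difference of Sst between vehicle males and vehicle females, male minus female, was 0.31 ± 0.17 (SE), a fold of 1.24 with a 95% interval from 0.962 to 1.61 (limma adjusted p = 1.00, unadjusted 0.0879). Zebularine minus vehicle came to 0.24 ± 0.17 in females, a fold of 1.18 with an interval from 0.915 to 1.53, and to -0.14 ± 0.17 in males, a fold of 0.910 with an interval from 0.704 to 1.18. The male minus female difference of these 2 effects was -0.38 ± 0.24 (SE, limma adjusted p = 0.976). None of these passed. The 2 intervals against vehicle females depended on which libraries set the spread. With only the compared groups in the fit, the interval of the log2 difference was 0.085 to 0.54 for vehicle males against vehicle females (limma unadjusted p = 0.0141, adjusted 1.00). For zebularine in females it was then 0.050 to 0.43 (limma unadjusted p = 0.0202, adjusted 1.00). Without vehicle male replicate 1 the difference between vehicle males and vehicle females was 0.42 (limma unadjusted p = 0.0426, adjusted 1.00).

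Groups of 3 that do not overlap are common in these data. For vehicle males against vehicle females this held for 1 of the 7 members, Sst, and for 6.63% of all tested genes. For zebularine against vehicle in females it held for 1 member, again Sst, and for 9.21% of genes. The female separation rested on 110.3 against 109.1 RPKM, and after median-ratio scaling of the libraries Sst overlapped there. In males it held for 1 member, Vip, and for 14.3% of tested genes, which do not include Vip. Between treated males and treated females it held for 0 members and for 15.4% of genes.

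The male response of Sst depended on zebularine male replicate 1. Without that library the log2 difference of zebularine minus vehicle in males was -0.37 with a 95% interval from -0.61 to -0.13 (limma unadjusted p = 0.00661, adjusted p = 0.427). The male minus female difference of the effect was then -0.61 with an interval from -0.93 to -0.29 (limma unadjusted p = 0.00178, adjusted p = 0.874). The other 3 comparisons of 2 groups also had an unadjusted limma p under 0.05 for Sst without this library: 0.0312 for zebularine in females, 0.00851 between vehicle sexes and 0.0210 between treated sexes. None passed after adjustment over all genes. The comparisons of zebularine in females and of the vehicle sexes hold no treated male, so their estimates stayed as in the main fit. Their lower p came with the smaller spread: the within-group SD of Sst was 0.24 with this library and 0.13 without it.

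Npy encodes neuropeptide Y, an inhibitory peptide of interneurons that also acts in hypothalamic control of feeding. Its libraries varied more than those of any other member that was tested. Vehicle females stood at 23.7, 13.0 and 32.4 RPKM, and zebularine females at 11.7, 17.0 and 18.7 RPKM. Vehicle males stood at 16.5, 13.4 and 14.1 RPKM, and zebularine males at 39.4, 11.4 and 11.6 RPKM. Thus zebularine male replicate 1 held the highest value and the other two treated males the lowest values, and all 4 groups overlapped.

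Npy had a log2 difference of zebularine minus vehicle of -0.46 ± 0.44 (SE) in females, a fold of 0.725 with a 95% interval from 0.372 to 1.41 (limma adjusted p = 1.00). In males it was 0.24 ± 0.44, a fold of 1.18 with an interval from 0.607 to 2.31 (limma adjusted p = 0.916), and without zebularine male replicate 1 it was -0.33. Between vehicle males and vehicle females it was -0.54 ± 0.44, a fold of 0.686 with an interval from 0.352 to 1.34. Differences within these intervals could not be resolved for Npy.

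Penk and Pdyn encode the opioid precursors. Penk gives enkephalins, which act at mu and delta opioid receptors, and Pdyn gives dynorphins, which act at kappa receptors. Penk stood at 101, 50.6 and 42.9 RPKM in vehicle females, 45.2, 56.7 and 62.5 RPKM in zebularine females, 61.0, 48.3 and 69.2 RPKM in vehicle males, and 108, 68.3 and 51.4 RPKM in zebularine males. Its 2 highest libraries, vehicle female replicate 1 and zebularine male replicate 1, belong to opposite sexes and treatments, and the other 10 lay between 42.9 and 69.2 RPKM.

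For Penk the log2 difference of zebularine minus vehicle was -0.15 ± 0.32 (SE) in females and 0.30 ± 0.32 in males, folds of 0.902 (95% interval 0.553 to 1.47) and 1.23 (0.754 to 2.00). Without vehicle female replicate 1 the female value was 0.22. Pdyn kept to a narrow range, from 4.63 RPKM in vehicle male replicate 1 to 7.95 RPKM in vehicle female replicate 1, and all groups overlapped. Its zebularine minus vehicle log2 difference was -0.044 ± 0.15 in females and 0.14 ± 0.15 in males. Over both sexes it was 0.047 ± 0.11, a fold of 1.03 with a 95% interval from 0.876 to 1.22, the narrowest interval among the 6 tested members.

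Tac1 encodes the precursor from which substance P and neurokinin A are cut, excitatory peptides that act at tachykinin receptors. It ran from 5.34 RPKM in vehicle male replicate 1 to 11.2 RPKM in vehicle male replicate 2, so that its lowest and highest libraries were in the same group. The zebularine minus vehicle log2 difference was -0.023 ± 0.24 (SE) in females and 0.20 ± 0.24 in males. Over both sexes it was 0.086 ± 0.17, a fold of 1.06 with a 95% interval from 0.821 to 1.37 (limma adjusted p = 0.922).

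Cck encodes cholecystokinin, a peptide of interneurons and of many cortical projection cells. It stood at 1.63, 2.77 and 3.24 RPKM in vehicle females, 3.24, 3.22 and 2.11 RPKM in zebularine females, 2.35, 3.22 and 2.87 RPKM in vehicle males, and 2.27, 1.56 and 2.57 RPKM in zebularine males. Treated males included the lowest library, and overlapped each other group. These levels rest on between 28 and 101 reads per library. The log2 difference of zebularine minus vehicle was 0.16 ± 0.23 (SE) in females and -0.34 ± 0.23 in males, folds of 1.12 (95% interval 0.784 to 1.59) and 0.789 (0.553 to 1.12), with limma adjusted p = 1.00 and 0.712.

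Vip encodes vasoactive intestinal peptide, which marks a class of interneurons and the clock neurons of the suprachiasmatic nucleus, just behind the preoptic area. It had between 3 and 16 reads per library and 85 over the series, and at 3 reads a library reads between 0.0656 and 0.126 RPKM. Vehicle females stood at 0.0786, 0.246 and 0.494 RPKM and zebularine females at 0.282, 0.221 and 0.0935 RPKM, so that the female groups overlapped. Vehicle males stood at 0.261, 0.144 and 0.223 RPKM, and zebularine males at 0.109, 0.126 and 0.0950 RPKM. All 3 treated males were below all 3 vehicle males, with 11 reads in all against 25, and each treated male had 3 to 5 reads. With no filter on low values Vip could be tested: its male log2 difference was -0.21 ± 0.17 (SE), a fold of 0.862 with a 95% interval from 0.661 to 1.13, computed with 0.5 added to each RPKM, which shrinks differences of a gene this low (limma adjusted p = 0.820). Vip was not tested on its recovered reads.

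**Figure D2:**
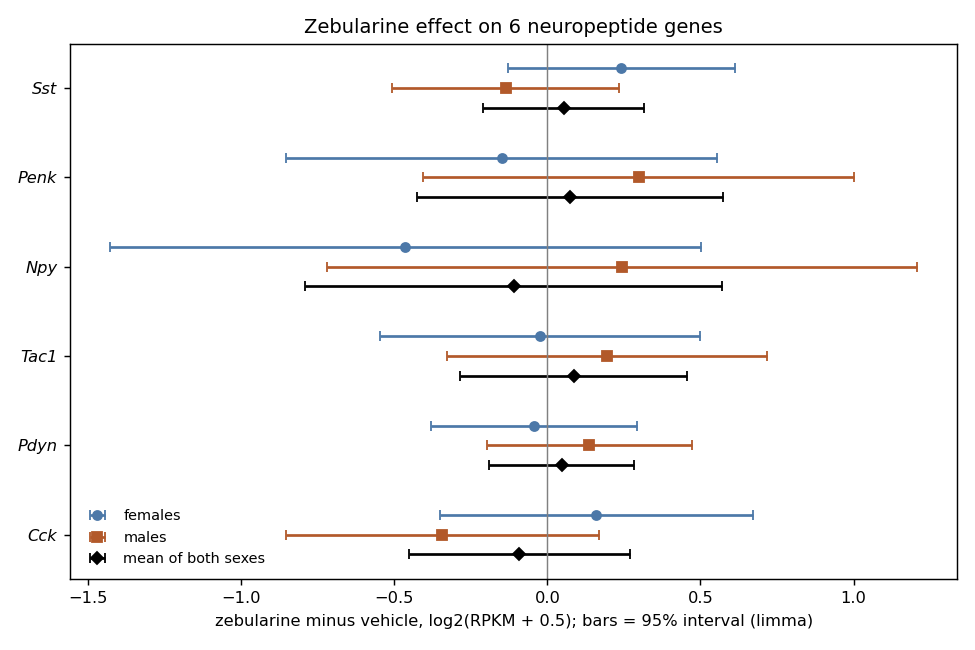
Difference of zebularine minus vehicle on the log2(RPKM + 0.5) scale (horizontal axis) for the 6 tested genes in females, in males and averaged over both sexes; bars are 95% intervals from limma. Each interval includes 0, and those of Npy and Penk are the widest.

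Averaged over both sexes, 4 of the 6 tested members lay above 0 and 2 below, with a median log2 difference of 0.050 against 0.0051 for all tested genes. In females 2 lay above and 4 below (median -0.034 against 0.0050), and in males 4 above and 2 below (median 0.17 against 0.00077). Npy, Penk, Pdyn and Tac1 had positive estimates in males and negative ones in females, and Sst and Cck the opposite, but no member passed the test of the difference between the sexes. The smallest unadjusted limma p of that test was 0.141, for Sst. The male and female effects share no library. Between treated males and treated females the estimates ran from -0.35 ± 0.23 (SE) for Cck to 0.41 ± 0.32 for Penk.

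Npy, Penk, Sst and Tac1 varied more between libraries of the same group than most genes of like level. The within-group SD of Npy was 0.63 on the log2(RPKM + 0.5) scale, larger than that of 99.2% of the 500 tested genes nearest to it in mean level, whose median was 0.097. For Penk it was 0.46, also above 99.2% of its nearest genes, with a median of 0.091. Sst followed at 0.24, above 95.6% (median 0.094), and Tac1 at 0.33, above 93.0% (median 0.13). Pdyn, at 0.20, and Cck, at 0.31, lay above 73.6% and 71.6% of the genes nearest to them. Vip, at 0.23, lay above 17.8% of its nearest genes, whose median was 0.43. However, Vip did not pass the filter on low values, and only 0.0674% of tested genes had a lower mean. Its nearest genes were therefore not of like level, and this rank does not show how variable Vip is. The SD of RPKM within groups was 51.7% of the mean for Npy, 35.3% for Penk and 17.4% for Sst. Counting error alone gives 6.37%, 2.72% and 2.46% at their mean read numbers, in that order. For Vip the within-group figure was 60.3% and counting error alone gives 37.6%.

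**Figure D3:**
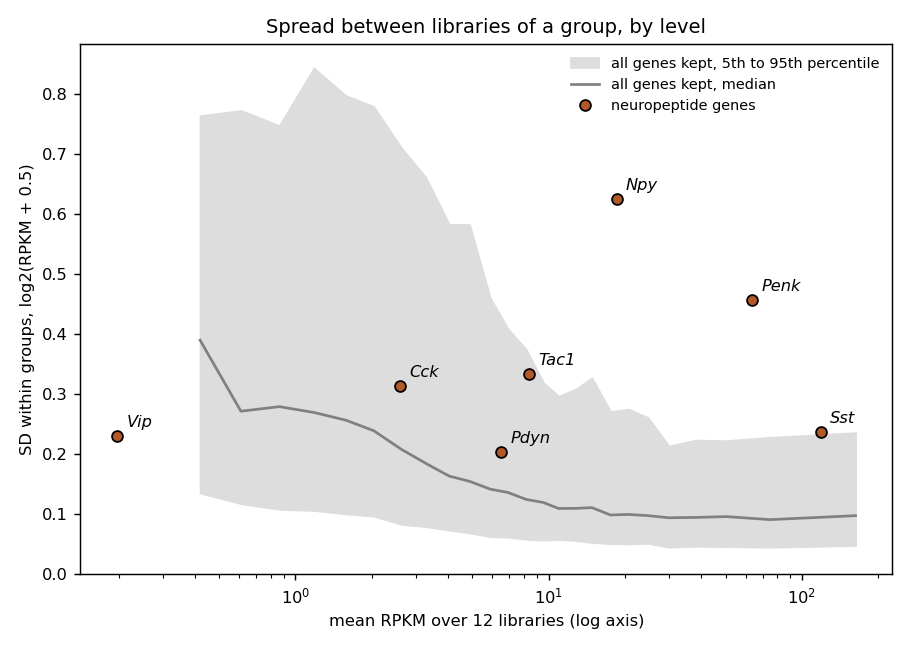
Within-group SD on the log2(RPKM + 0.5) scale (vertical axis) against mean RPKM (log axis) for the 7 peptide genes (points), with the median and the 5th to 95th percentile of all tested genes in 25 classes of level. Npy (0.63) and Penk (0.46) lie far above the range of genes of their level.

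Leaving out each library in turn, Npy and Penk stayed above at least 98.6% of the genes nearest in level. The SD of Npy was 0.40 without zebularine male replicate 1 and that of Sst 0.13, where Sst exceeded 81.6% of its nearest genes. Penk had its lowest SD, 0.35, without vehicle female replicate 1. Tac1 had its lowest, 0.26, without vehicle male replicate 2. The large spread of Npy and Penk was thus present without any single library, while that of Sst was 0.24 with and 0.13 without zebularine male replicate 1.

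The libraries that were high differed from gene to gene. Zebularine male replicate 1 was the highest of the 12 for Sst, Penk and Npy, 3 of 7 members, and for 10.8% of all tested genes. Its deviations from the group mean were 1.15 for Npy, 0.58 for Penk and 0.46 for Sst on the log2 scale, and -0.050 for Pdyn. Vehicle female replicate 1 was 0.74 above its group for Penk and 0.48 below it for Cck. Zebularine female replicate 3, the library that stood apart, was the lowest of its group for 5 of the 7 members and the highest for Penk and Npy. Vehicle male replicate 1 was the lowest of the series for both Pdyn and Tac1.

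**Figure D4:**
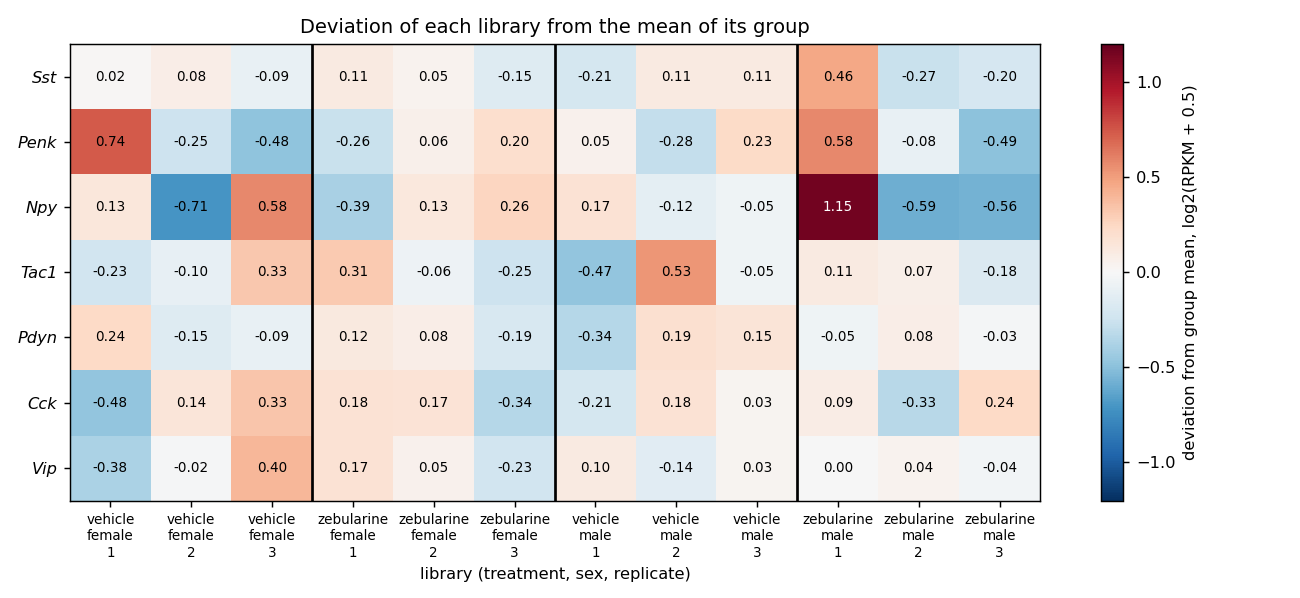
Deviation of each library from the mean of its group on the log2(RPKM + 0.5) scale (colour and printed value) for the 7 genes (rows) in the 12 libraries (columns, grouped by treatment and sex). The largest deviation is that of Npy in zebularine male replicate 1, at 1.15; Penk and Cck deviate in opposite directions in 8 of 12 libraries.

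Whether the members varied together was examined for all 21 pairs, with group means removed and an exact permutation test within groups (1296 permutations, two-sided). No pair passed after adjustment over the 21 pairs. The largest negative correlation was that of Penk with Cck, r = -0.65 (exact permutation p = 0.107, adjusted 0.631) and rho = -0.80 (exact permutation p = 0.0177, adjusted 0.373) over 12 libraries, and r = -0.68 without the 2 libraries farthest from the median of Penk. Tac1 and Cck gave r = 0.56 (exact permutation p = 0.0656, adjusted 0.631) and rho = 0.60 (exact permutation p = 0.0802, adjusted 0.573), with r = 0.53 without the 2 farthest libraries.

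Several other coefficients moved with the 2 farthest libraries, in either direction. In every pair these were the 2 libraries farthest from the median of the gene named first. Coefficients without them were not tested. Npy and Penk gave r = 0.52 (exact permutation p = 0.276, adjusted 0.631) and rho = 0.44 (exact permutation p = 0.306, adjusted 0.721), and r = 0.25 without the 2 farthest libraries. Sst and Npy gave r = 0.48 (exact permutation p = 0.390, adjusted 0.631) and rho = 0.10 (exact permutation p = 0.823, adjusted 0.919), and r = -0.28 without them. Without zebularine male replicate 1 alone, r of Sst and Npy was -0.63. Cck and Vip gave r = 0.63 (exact permutation p = 0.160, adjusted 0.631) and rho = 0.40 (exact permutation p = 0.341, adjusted 0.721), and r = 0.20 without the 2 farthest. Penk and Vip gave r = -0.59 (exact permutation p = 0.184, adjusted 0.631) and rho = -0.31 (exact permutation p = 0.412, adjusted 0.721), and r = -0.40 without the 2 farthest.

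Pdyn and Tac1, both lowest in vehicle male replicate 1, gave r = 0.50 (exact permutation p = 0.286, adjusted 0.631) and rho = 0.42 (exact permutation p = 0.319, adjusted 0.721), and r = 0.080 without the 2 farthest. Tac1 with Vip, which had 3 to 16 reads per library, and Sst with Pdyn moved the other way. Tac1 and Vip gave r = 0.35 (exact permutation p = 0.313, adjusted 0.631) and rho = 0.35 (exact permutation p = 0.350, adjusted 0.721), and r = 0.86 without them. Sst and Pdyn gave r = 0.30 (exact permutation p = 0.242, adjusted 0.631) and rho = 0.38 (exact permutation p = 0.225, adjusted 0.721), and r = 0.72 without them.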

How the data were processed

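Preoptic area RNA-seq covered 12 samples in 4 groups of 3, grouped by their titles. Values deposited by the authors are RPKM per Ensembl gene identifier, and the submitters' processing notes name TopHat. The read counter, genome build, annotation and strand setting are not named by the sources used here, so reads of overlapping or antisense genes may be shared. The values were whole reads once scaled by library total and gene length (100% of 23427 detected genes, within 1e-06 of a read), which gave depths and read numbers.

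log2(RPKM + 0.5) was fitted with limma 3.58.1 (R 4.3.3; eBayes with trend) as 4 group means over 12 libraries, for the 16310 genes that reached 0.5 RPKM in 3 or more libraries. Tests were two-sided, and p-values of each of the 6 comparisons were adjusted by Benjamini-Hochberg across these genes. The fit was tested on simulated data with the same biological spread set for every gene, below the within-group spread of each tested member. That simulation does not show what could be detected for these members. Tables were made with pandas 2.3.3 and figures with matplotlib 3.10.9. All 7 members are named, by rule. Genes most like a member were to be named only where a symbol was paired with the identifier. The members and lists were chosen with earlier results of these data known. Limma-voom on recovered reads and the spread without each library were added after seeing the data. Alternatives were median-ratio scaling, pseudocounts of 0.1 and 1, no filter, a filter of 1 RPKM, robust eBayes, only the compared groups, blocks and leaving out each library. The main fit did not pair samples by the replicate numbers of the titles. Among the 18 same-numbered pairs of libraries from different groups, the correlation of deviations from group means exceeded 0.1 in 5. It ran from -0.30 to 0.30. Among the 36 pairs with other numbers it exceeded 0.1 in 8 and ran from -0.29 to 0.23. These values cannot show whether same-numbered samples shared a litter or batch. The pathway and marker lists fixed by symbol were not analysed here.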

Additional observations from a re-analysis of the deposited data

How the results depend on the processing

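No member was called in any of the 6 comparisons under any alternative run: 822 fits of single members, whose limma adjusted p ran from 0.358 to 1.00. The lowest was that of Sst between treated males and treated females without zebularine male replicate 1. The lowest adjusted p of r was taken over these pairs: Penk with Cck, Tac1 with Cck, Npy with Penk, Sst with Npy and Cck with Vip. None of these pairs passed under median-ratio scaling, the other pseudocounts or when any 1 library was left out (lowest adjusted exact permutation p 0.146). That value does not cover the other pairs or rho. With 3 libraries a group, changes inside the printed intervals could not be seen.

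The fit with the replicate block called 0 members and changed no direction of a member; it called 9 genes in all for both sexes together (66 without it), 1 in females (7) and 3 between treated sexes (5). Limma-voom called 1 in females and 3 between treated sexes, and a pseudocount of 0.1 called 4 in females and 2 in males (0). With only the compared groups 1 was called in females, 4 in males, 1 between vehicle sexes (2) and 1 between treated sexes. With no filter 2 passed for the difference of effects (0) and 5 between vehicle sexes. Leaving out each library gave 11 to 113 genes for both sexes together, 0 to 57 in females, 0 to 15 in males and 3 to 18 between treated sexes.

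The block on the number in the file names called 6, 2, 1 and 2 genes for both sexes, females, vehicle sexes and treated sexes. With it some estimates took the opposite sign, given here with the main fit in brackets. Over both sexes they were -0.027 (0.053) for Sst, 0.16 (-0.11) for Npy, -0.061 (0.047) for Pdyn and -0.11 (0.086) for Tac1. In males they were -0.0019 (0.14) for Pdyn and -0.024 (0.20) for Tac1. Between vehicle sexes they were 0.0035 (-0.14) for Pdyn and 0.10 (-0.12) for Tac1. Between treated sexes they were 0.032 (-0.062) for Sst and -0.074 (0.16) for Npy. The cause was not tested.

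Leaving out 1 library turned other estimates, given here as lowest and highest log2 difference, each with the library left out (group and replicate number). Over both sexes the range was Sst -0.063 (zebularine male 1) to 0.12 (zebularine male 2), Npy -0.40 (zebularine male 1) to 0.038 (zebularine male 2), Penk -0.070 (zebularine male 1) to 0.26 (vehicle female 1), Pdyn -0.039 (vehicle male 1) to 0.11 (vehicle female 1), Tac1 -0.032 (vehicle male 1) to 0.22 (vehicle male 2). In females the range was Penk -0.39 (vehicle female 3) to 0.22 (vehicle female 1), Pdyn -0.12 (vehicle female 2) to 0.075 (vehicle female 1), Tac1 -0.18 (zebularine female 1) to 0.14 (vehicle female 3), Cck -0.079 (vehicle female 1) to 0.33 (zebularine female 3). In males the range was Npy -0.33 (zebularine male 1) to 0.54 (zebularine male 2), Pdyn -0.034 (vehicle male 1) to 0.23 (vehicle male 2), Tac1 -0.041 (vehicle male 1) to 0.46 (vehicle male 2). For the difference of effects the range was Tac1 -0.018 (vehicle male 1) to 0.48 (vehicle male 2). Between vehicle sexes the range was Penk -0.28 (vehicle female 3) to 0.33 (vehicle female 1), Pdyn -0.23 (vehicle male 2) to 0.036 (vehicle male 1), Tac1 -0.38 (vehicle male 2) to 0.12 (vehicle male 1), Cck -0.088 (vehicle female 1) to 0.32 (vehicle female 3). Between treated sexes the range was Sst -0.29 (zebularine male 1) to 0.071 (zebularine male 2), Npy -0.41 (zebularine male 1) to 0.46 (zebularine male 2), Pdyn -0.052 (zebularine female 3) to 0.10 (zebularine female 1), Tac1 -0.023 (zebularine female 3) to 0.26 (zebularine female 1). The r of Sst and Npy ran from -0.63 (zebularine male 1) to 0.64 (vehicle female 2).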

Other observations

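With group means removed, over 12 libraries and genes of at least 1 RPKM on average, 1728 of 14370 genes correlated with Sst more highly than its nearest member, Npy, did. The shares were 17.5% for Npy and 18.4% for Penk, which are each other's nearest members. They were 5.39% for Pdyn, whose nearest member was Tac1, 8.74% for Tac1, nearest to Cck, and 5.76% for Cck, nearest to Vip. These correlations share libraries and depth and are given as a description.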
